A study of Mus musculus with 4 samples.

Results

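The G1 control genes analysed here are 10 genes chosen by name: the D-type cyclins *Ccnd1*, *Ccnd2* and *Ccnd3*, their kinases *Cdk4* and *Cdk6*, and the Cdk inhibitors *Cdkn1a*, *Cdkn1b*, *Cdkn1c*, *Cdkn2c* and *Cdkn2d*. All 10 were found among the 23906 gene symbols of each expression table. The RNA sequenced came from sorted LSK-SLAM cells, a lineage-negative, Sca1-positive, cKit-positive, CD150-positive and CD48-negative population enriched for haematopoietic stem cells (HSCs). There were 4 samples with 1 per group: cells with (GFP+) and without (GFP-) BMP activation, each from fetal liver (FL) at embryonic day 14 and from adult bone marrow (BM). All 4 groups carried the *BRE-GFP* transgene, a reporter of Smad1/5 activity in the sorted cells, on a C57BL/6 background. How many embryos or mice were pooled in a sample, and the age of the adults whose RNA was sequenced, were not given in the sources used here. The values are FPKM (fragments counted over a transcript, divided by its length and by the size of the library), a level per length, so that genes can be set side by side, and where a tissue has a pair of values the GFP+ sample comes first. Without replicates no value has an error, and the order of any samples whose values lie close together is uncertain. The tables hold no read counts, so the number of reads behind a single value is unknown. In bulk samples, fewer cells of a type and less RNA per cell cannot be told apart.

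D-type cyclins bind Cdk4 or Cdk6 in G1, and the active kinases phosphorylate the retinoblastoma protein, which releases E2F factors and opens the way to S phase. Inhibitors of the INK4 family, here *Cdkn2c* (p18) and *Cdkn2d* (p19), bind Cdk4 and Cdk6 alone. Those of the CIP/KIP family, *Cdkn1a* (p21), *Cdkn1b* (p27) and *Cdkn1c* (p57), bind cyclin-Cdk complexes, including those of Cdk2. HSCs of the fetal liver cycle actively, whereas most of those in adult marrow are quiescent, and p57 and p27 are known for their part in that quiescence.

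The tissue labels were checked against 8 fetal genes, of which 4 were higher in both FL samples than in both BM samples. *Lin28b* had 2.57 and 5.96 FPKM in fetal GFP+ and GFP- cells against 0.0443 and 0.0587 in their adult counterparts. *Igf2bp1* was at 425.6 and 58.8 against 0 and 0.0184, and *Hmga2* and *Igf2bp3* had the same tissue order. *Afp* did not, with 148.7 and 5.66 against 12.9 and 4.79, nor did *Hbb-bh1*, with 0.177 and 4.15 against 0.243 and 0. *Hbb-y* and *Hba-x* were at 0 in every sample. The labelled cell type held less well in the BM. *Procr*, a surface marker of HSCs, was listed at 0 in BM GFP+ cells against 60.8 to 113.5 elsewhere, *Kit* had 22.2 there against 76.6 to 150.3, and *Cd48*, whose protein the sort excluded, had 266.8 against 17.4 to 126.5. *Cd34* and *Slamf1* (CD150) were also lowest in BM GFP+ cells, but *Ly6a*, which encodes the sort marker Sca1, was highest there, at 286.2 against 19.7, 46.3 and 145.5. The sums of 5 lists of blood cell lineage markers were higher in both BM samples than in both FL samples and highest in BM GFP+ cells. Single genes such as *Ctsg* (1762 against 1868 in BM GFP- cells) and *Epor* (32.4 against 50.1 in FL GFP+ cells) did not have this order. The 10 granulocyte genes summed to 587.5 and 310.5 FPKM in fetal GFP+ and GFP- cells and to 64056 and 17786 in the adult ones. The sums of 8 B cell genes were 96.3, 43.5, 3493 and 954.6 in the same order. Those of 7 erythroid genes were 991.7, 907.3, 20421 and 2842, those of 8 T and NK cell genes 22.9, 13.9, 570.3 and 359.0, and those of 7 macrophage genes 73.0, 37.9, 321.4 and 99.5. None of these markers was at 0 in a BM sample, whereas *Ebf1*, *Pax5* and *Igll1* of B cells and *Cd3e* and *Cd3g* of T cells were at 0 in both FL samples. The lineage stain of the sort covered CD3, B220, Ter119 and Ly6c, with CD11b added for BM. The sums of 6 megakaryocyte and platelet genes were 58.8 and 75.0 FPKM in the FL against 366.0 and 454.5 in the BM. *Pf4* alone had 244.9 and 315.3 in the BM, and *Gp9* and *Vwf* were instead higher in both FL samples. For 7 hepatocyte genes the sums were 211.9 and 23.7 in the FL against 0.352 and 2.2001. *Trf*, the eighth gene of that list, had 91.6 and 40.9 against 66.5 and 47.8. The part of such cells in the results was not tested. The number of genes with any signal ran from 12372 (FL GFP+) to 17345 (BM GFP-).

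The promoters of 4 members are shown for the tissue order of their values. *Cdkn1b*, *Cdkn2c* and *Cdkn2d* are the inhibitors whose FPKM was higher in both BM samples than in both FL samples under every scaling tried, and *Cdk4* is the kinase with the opposite order. The windows run from 250 bases before to 50 bases after a transcription start, are from RefSeq (GRCm38.p6) and read 5′ to 3′ on the strand of the gene. Capitals mark matches to the E-box CACGTG, which Myc binds, to GGCGCC, the GC palindrome found in the BMP responsive element that drives the reporter, and to the CCAAT box, on either strand. *Cdkn2c* has another start, whose window is not shown and held a CACGTG and a CCAAT box.
*Cdkn1b* (chr6:134920151-134920450, plus strand): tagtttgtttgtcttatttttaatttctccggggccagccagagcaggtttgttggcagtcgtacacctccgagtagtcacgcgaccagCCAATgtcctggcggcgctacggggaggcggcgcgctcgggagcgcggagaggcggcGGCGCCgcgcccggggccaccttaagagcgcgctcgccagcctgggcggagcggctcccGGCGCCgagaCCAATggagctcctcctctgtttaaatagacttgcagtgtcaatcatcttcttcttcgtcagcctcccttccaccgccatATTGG
*Cdkn2c* (chr4:109666707-109667006, minus strand): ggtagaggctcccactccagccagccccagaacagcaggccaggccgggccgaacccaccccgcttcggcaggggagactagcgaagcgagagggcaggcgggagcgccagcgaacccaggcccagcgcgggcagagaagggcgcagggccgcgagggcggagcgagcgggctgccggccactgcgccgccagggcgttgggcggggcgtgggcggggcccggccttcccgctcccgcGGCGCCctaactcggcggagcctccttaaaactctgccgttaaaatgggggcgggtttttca
*Cdkn2d* (chr9:21291160-21291459, minus strand): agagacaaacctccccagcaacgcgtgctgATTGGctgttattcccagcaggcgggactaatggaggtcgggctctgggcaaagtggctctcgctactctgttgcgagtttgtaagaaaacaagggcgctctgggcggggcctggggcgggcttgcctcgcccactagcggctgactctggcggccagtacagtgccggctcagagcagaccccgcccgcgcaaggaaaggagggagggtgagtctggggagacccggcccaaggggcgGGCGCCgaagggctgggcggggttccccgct
*Cdk4* (chr10:127063285-127063584, plus strand): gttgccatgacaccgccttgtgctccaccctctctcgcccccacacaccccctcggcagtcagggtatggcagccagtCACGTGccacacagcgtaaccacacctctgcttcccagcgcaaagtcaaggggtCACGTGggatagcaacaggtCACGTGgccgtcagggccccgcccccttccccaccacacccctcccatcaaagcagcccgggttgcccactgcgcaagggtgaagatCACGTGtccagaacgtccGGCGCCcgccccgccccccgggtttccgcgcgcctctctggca

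The *Cdk4* window held 4 E-boxes, which begin at -172, -118, -98 and -11 from the start, and 1 GGCGCC. The *Cdkn1b* window held 2 copies of GGCGCC and 3 CCAAT boxes. Promoter windows were found for 7 of the 10 members, 10 windows in all. Of these, 6 windows of 6 members held GGCGCC, against 11.9% of all 32841 windows, 3 held CACGTG, against 7.15%, and 4 held CCAAT or ATTGG, against 37.4%. The E2F letters TTTCCCGC and TTTGGCGC, in either orientation, were in none of the 10 windows and in 1.07% and 0.515% of all. TTTGGCGC shares 5 letters with GGCGCC, and no matches overlapped in the printed windows. Windows of the members shown ranged from 62.0% to 73.3% GC against a median of 52.7% over all windows, and GGCGCC is itself all G and C. A match is a description of letters, not of binding.

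The 3 D-type cyclin genes were led by *Ccnd3* in every sample. *Ccnd3* (chromosome 17 of NCBI37/mm9, 47642000 to 47736632) had 151.5 and 163.1 FPKM in fetal and 318.5 and 219.6 in adult cells. Both BM samples thus lay above both FL samples, with BM GFP+ cells 2.10-fold above FL GFP+ cells and BM GFP- cells 1.35-fold above FL GFP- cells. With every sample scaled to the same FPKM total, the BM to FL ratio of the GFP- samples changed sign without the short RNA genes, to -0.04 on the log2(FPKM + 1) scale, and that of the GFP+ samples went from 1.07 to 0.37, within 2-fold. *Ccnd1* (chromosome 7, 152115836 to 152125774), the cyclin most associated with mitogen signalling, ran the other way. Its FPKM was 49.7 and 30.0 in fetal and 10.98 and 17.3 in adult cells, which put FL above BM 4.52-fold in GFP+ and 1.73-fold in GFP- cells. The row of the microRNA gene *Mir3962* holds the same 4 values as *Ccnd1*, although RefSeq places it on another chromosome, and which of the 2 genes the reads came from was not tested. *Ccnd2* (chromosome 6, 127075797 to 127101066), which is used widely in haematopoietic progenitors, varied least among the cyclins, with 71.1 and 63.3 FPKM in fetal and 52.2 and 44.0 in adult cells.

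**Figure D1:**
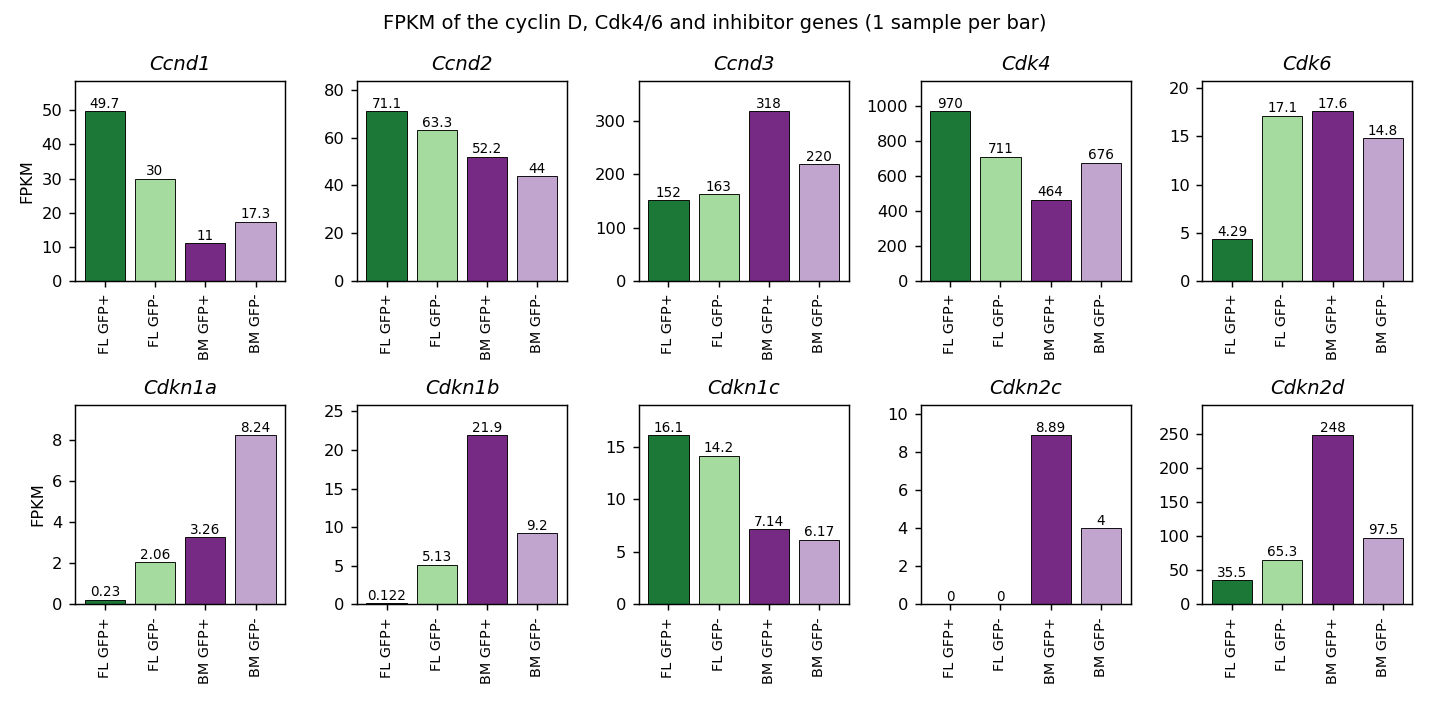
FPKM of each gene in the 4 samples (bars from 0, 1 sample each, no error available, separate axis for each gene). *Ccnd1*, *Ccnd2*, *Cdk4* and *Cdkn1c* are higher in both FL samples, while *Ccnd3*, *Cdkn1a*, *Cdkn1b*, *Cdkn2c* and *Cdkn2d* are higher in both BM samples.

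Shares within a sample do not depend on how samples are scaled to each other. *Ccnd1* made up 18.2% and 11.7% of the summed cyclin D FPKM in fetal GFP+ and GFP- cells, but 2.88% and 6.17% in adult ones. The share of *Ccnd2* lay within 24.7% to 26.1% (FL) and 13.7% to 15.7% (BM). *Ccnd3* took 55.7% and 63.6% in the FL against 83.5% and 78.2% in the BM. The shares of the FL samples did not overlap those of the BM samples. The 3 shares sum to a fixed total and so are not independent, and 46.1% of all genes had FPKM that did not overlap between the tissues. Set directly against each other, *Ccnd3* exceeded *Ccnd1* 3.05-fold and 5.44-fold in fetal and 29.0-fold and 12.7-fold in adult cells. The summed level of the 3 genes was 272.3 and 256.3 FPKM in fetal and 381.6 and 280.9 in adult cells.

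*Cdk4* (chromosome 10, 126500590 to 126504976) was the member with the highest FPKM in every sample. It had 969.6 and 710.7 FPKM in fetal and 464.3 and 676.3 in adult cells, and in each sample lay above 97.2% to 99.2% of the genes reaching 1 FPKM. FL GFP+ cells were 2.09-fold above BM GFP+ cells, whereas FL GFP- and BM GFP- cells were 1.05-fold apart. *Cdk6* (chromosome 5, 3343893 to 3523218), the other partner of the D-type cyclins and the one tied to exit of HSCs from quiescence, was far lower. Its FPKM was 4.29 and 17.1 in fetal and 17.6 and 14.8 in adult cells. The FL GFP+ sample stood apart at 3.99-fold below FL GFP- cells, and the other samples lay close together. Of the 3982 genes whose FPKM was within 2-fold of *Cdk6* in FL GFP- cells, 12.3% were at or below 4.29 in FL GFP+ cells. The *Cdk4* to *Cdk6* ratio was 225.9 in FL GFP+ cells and 41.5, 26.4 and 45.7 in FL GFP-, BM GFP+ and BM GFP- cells.

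Among the CIP/KIP inhibitors, *Cdkn1c* and the pair *Cdkn1a* and *Cdkn1b* had opposite tissue orders. *Cdkn1c* (chromosome 7, 150644255 to 150646955), an imprinted gene expressed from the maternal allele, had 16.1 and 14.2 FPKM in fetal and 7.14 and 6.17 in adult cells. FL exceeded BM 2.25-fold in GFP+ and 2.29-fold in GFP- cells, while the fractions of each tissue were within 1.16-fold. *Cdkn1a* (chromosome 17, 29227924 to 29237667), a target of p53 and of TGF-β signalling, had 0.230, 2.06, 3.26 and 8.24 FPKM in FL GFP+, FL GFP-, BM GFP+ and BM GFP- cells. It was the only member more than 2-fold apart between the fractions in the same direction in both tissues, with GFP- above GFP+ cells 8.94-fold in the FL and 2.53-fold in the BM. Both BM samples were above both FL samples for this gene as deposited, but not after scaling to the same FPKM total. *Cdkn1b* (chromosome 6, 134870419 to 134875531), which restrains Cdk2 and is removed through Skp2, had 0.122, 5.13, 21.9 and 9.20 FPKM in the same order. GFP- cells were above GFP+ cells 42.1-fold in the FL, and GFP+ above GFP- cells 2.38-fold in the BM. Of the 3282 genes whose FPKM was within 2-fold of *Cdkn1b* in FL GFP- cells, 20.1% were at or below 0.122 in FL GFP+ cells, and 15.5% of the 3282 were at 0 there. For the 2652 genes like *Cdkn1a* the share at or below its 0.230 in FL GFP+ cells was 45.1%.

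The INK4 inhibitors were higher in the BM, and highest in its GFP+ cells. *Cdkn2d* (chromosome 9, 21092907 to 21095653) was the inhibitor with the highest FPKM in every sample, at 35.5 and 65.3 in fetal and 247.6 and 97.5 in adult cells. BM GFP+ cells were 6.99-fold above FL GFP+ cells and 2.54-fold above BM GFP- cells, and BM GFP- cells 1.49-fold above FL GFP- cells. *Cdkn2c* (chromosome 4, 109333481 to 109339794), which is known to limit HSC self-renewal, was listed at 0 in both FL samples and had 8.89 and 3.9998 FPKM in adult GFP+ and GFP- cells. Of the 3201 genes whose FPKM was within 2-fold of *Cdkn2c* in BM GFP- cells, 6.65% were at 0 in FL GFP- cells, and of the 3484 genes like it in BM GFP+ cells 14.8% were at 0 in FL GFP+ cells. BM GFP+ cells also had the highest summed granulocyte, erythroid, B cell, T and NK cell and macrophage markers, as given above, and BM GFP- cells the next highest. The sum of the megakaryocyte and platelet genes was instead highest in BM GFP- cells, at 454.5 FPKM against 366.0 in BM GFP+ cells. Within the FL these sums were higher in GFP+ than in GFP- cells, whereas *Cdkn2d* and *Cdkn1b* were lower in GFP+ cells. The part of cells of these lineages in the levels of *Cdkn1b*, *Cdkn2c* and *Cdkn2d* was not tested.

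**Figure D2:**
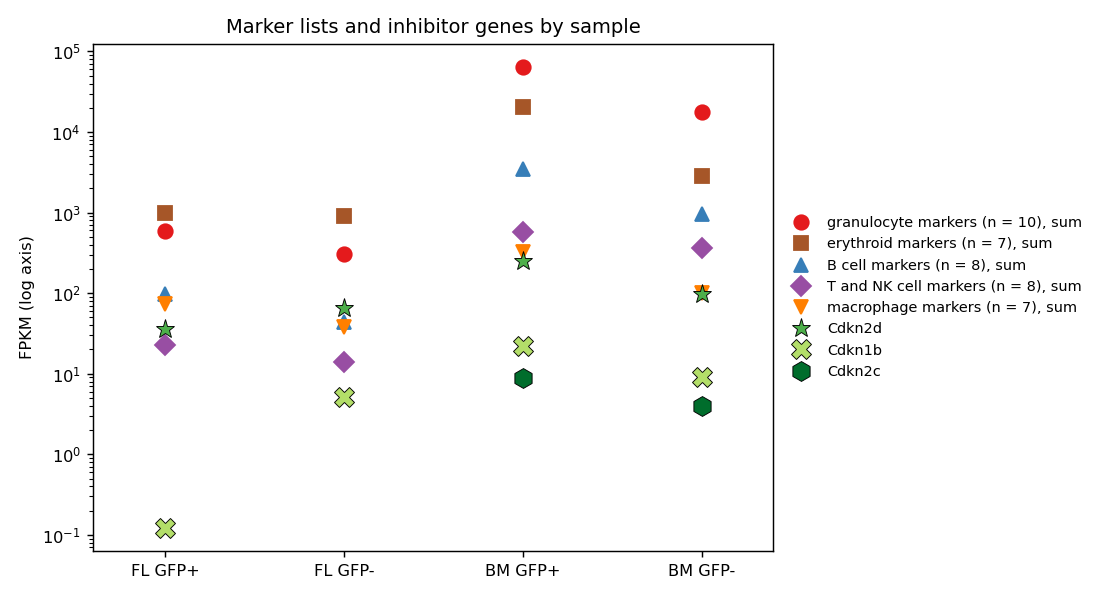
Summed FPKM of 5 lists of blood cell lineage markers and FPKM of *Cdkn2d*, *Cdkn1b* and *Cdkn2c* in each sample, on a log axis (1 sample per group; values of 0, those of *Cdkn2c* in both FL samples, are not drawn). The 5 marker sums and the 3 inhibitor genes are all highest in BM GFP+ cells, and BM GFP- cells come next for each of them. The sum of the megakaryocyte and platelet genes, not drawn, was highest in BM GFP- cells. Within the FL the 5 sums are higher in GFP+ than in GFP- cells, although single genes of the lists go both ways. *Cdkn2d* and *Cdkn1b* are lower in FL GFP+ than in FL GFP- cells.

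*Cdkn2d* supplied 68.3%, 75.4%, 85.7% and 77.9% of the summed inhibitor FPKM in FL GFP+, FL GFP-, BM GFP+ and BM GFP- cells. *Cdkn1c* supplied 31.0% and 16.3% of it in fetal cells but 2.47% and 4.93% in adult ones. The 5 inhibitors summed to 51.9 and 86.6 FPKM in fetal and 288.8 and 125.1 in adult cells. Set against the cyclins of the same sample, the summed inhibitors were 0.191 and 0.338 times the summed D-type cyclins in fetal and 0.757 and 0.445 times in adult cells, GFP+ first. Both BM samples were above both FL samples in this ratio, which does not depend on scaling. Of all genes, 46.1% had FPKM that did not overlap between the tissues, in either direction. Without *Cdkn2d*, which carries most of the sum, the ratio was 0.0604 and 0.0833 (FL) against 0.108 and 0.0983 (BM). These are levels of RNA, and neither protein nor binding was measured.

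**Figure D3:**
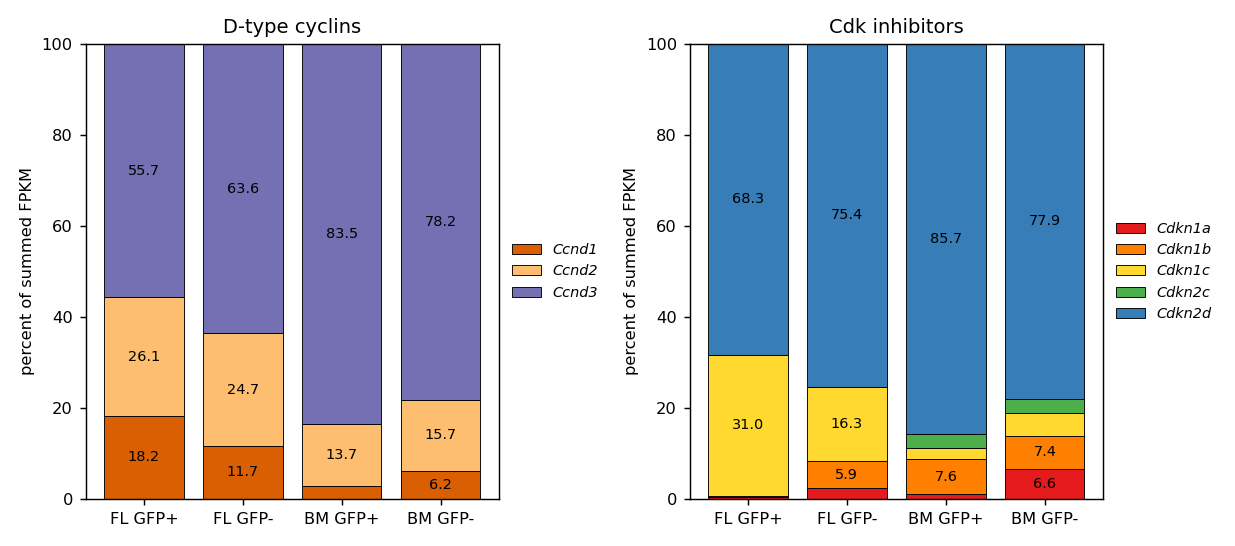
Share of each gene in the summed FPKM of the 3 D-type cyclins (left) and of the 5 inhibitors (right), in percent, for the 4 samples (1 per group). *Ccnd1* and *Ccnd2* take larger shares in both FL samples and *Ccnd3* in both BM samples; *Cdkn1c* takes 31.0% and 16.3% of the inhibitors in the FL and under 5% in the BM.

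The difference between the BMP-activated and non-activated fractions was read against all genes by the same rule, an FPKM more than 2 times that of the other sample where at least 1 of both reached 1. In the FL, 3 of the 9 members tested were past 2-fold, all lower in GFP+ cells (*Cdk6*, *Cdkn1a* and *Cdkn1b*), where 44.7% of 12134 genes were past it either way and 26.8% lower in GFP+ cells. Under each of the 3 other scalings *Cdkn2d*, also lower in GFP+ cells, was past it as well, which made 4 of 9. Of all genes, 43.1% to 43.2% were then past it. *Cdkn2c*, at 0 in both FL samples, was not tested. In the BM, 4 of 10 members were past 2-fold, with *Cdkn1b*, *Cdkn2c* and *Cdkn2d* higher in GFP+ cells (21.1% of 12385 genes were) and *Cdkn1a* lower, against 40.7% past it either way. With equal FPKM totals these 3 inhibitors were within 2-fold, and *Ccnd1* and *Cdkn1a*, both lower in GFP+ cells, were past it. Of all genes, 40.9% were then past it, and 32.9% of those were higher in GFP+ cells. These shares of members were close to or below those of all genes past 2-fold either way. *Cdkn1a* alone was more than 2-fold higher in the GFP- cells of both tissues (5.2% of 13609 genes), and no member was more than 2-fold higher in the GFP+ cells of both (2.76%). *Cdkn1b* alone was past 2-fold in opposite directions in FL and BM, as were 7.65% of all genes. Over the 10 members, GFP+ against GFP- cells had a median log2(FPKM + 1) ratio of -0.05 (FL) and 0.24 (BM), beside 0.05 and 0.12 over the genes tested. For no member did both GFP+ samples lie above, or both below, both GFP- samples, where 28% of all genes had such an order. After scaling to the same FPKM total, *Cdk6* and *Cdkn1a* were lower in both GFP+ samples than in both GFP- samples. Of all genes, 27.2% then had such an order in either direction.

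Between the tissues, 9 of the 10 members kept both BM samples on the same side of both FL samples, with *Cdk6* the exception. *Ccnd3*, *Cdkn1a*, *Cdkn1b*, *Cdkn2c* and *Cdkn2d* were higher in the BM and *Ccnd1*, *Ccnd2*, *Cdk4* and *Cdkn1c* higher in the FL. Of all 13609 genes, 46.1% had such an order, 26.2% with the BM and 19.9% with the FL higher. After scaling to the same FPKM total it held for 7, without *Ccnd3* and *Cdkn1a*, and for 49.7% of all genes. Past 2-fold, 9 of 10 members differed between BM GFP+ and FL GFP+ cells, against 58.7% of 12120 genes. Of them 6 were higher in BM (33.6% of all genes) and 3 higher in FL (25.1%). Between BM GFP- and FL GFP- cells 3 of 10 were past 2-fold, *Cdkn1a* and *Cdkn2c* higher in the BM (18.6% of 12703 genes were) and *Cdkn1c* lower, against 37.9% past it either way. *Cdkn1a* and *Cdkn2c* were more than 2-fold higher in the BM in both fractions (9.85% of all genes) and *Cdkn1c* more than 2-fold higher in the FL in both (6.35%). Without BM GFP+ cells, that is with BM GFP- cells against both FL samples, the same 3 genes passed, *Cdkn1a* and *Cdkn2c* upward (13.8% of all genes) and *Cdkn1c* downward (8.91%). The median log2(FPKM + 1) ratio of BM to FL over the members was 1.43 in GFP+ and 0.18 in GFP- cells, beside 0.15 and 0.04 over the genes tested.

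**Figure D4:**
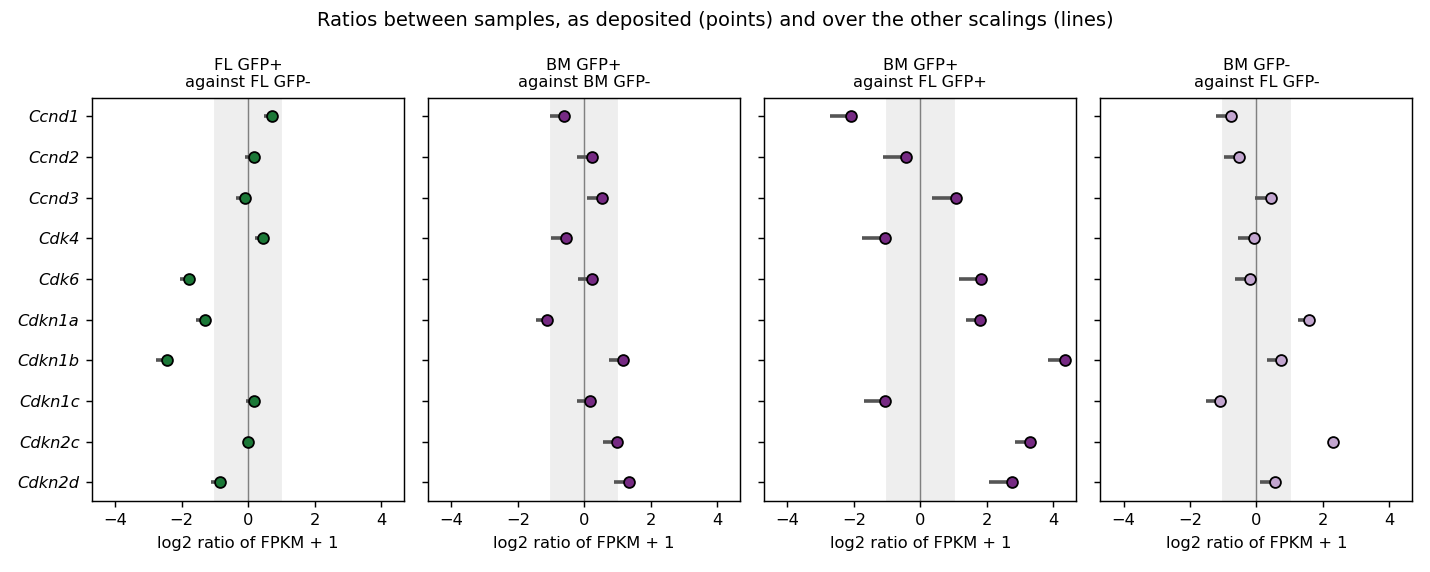
Log2 ratios of FPKM + 1 between samples for the 10 members in each of the 4 comparisons (points, values as deposited, 1 sample per group); the horizontal lines span the lowest to the highest value over the deposited and 3 other scalings, and the grey band is within 2-fold. *Cdkn1a*, *Cdkn2c* and *Cdkn1c* are outside the band on the same side in both comparisons of BM with FL.

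Scaling sets where the middle of the genes lies. Scaling to the same FPKM total lowered every ratio by 0.26 in the FL, 0.46 in the BM, 0.63 between the GFP+ and 0.43 between the GFP- samples on the log2 scale, and a median of ratios over well-expressed genes by 0.21, 0.04, 0.06 and 0.23. Of the genes past 2-fold, the share higher in the first-named sample moved from 51.8% to 32.9% between BM GFP+ and BM GFP- cells, from 57.2% to 41.04% between BM GFP+ and FL GFP+ cells, and from 49.0% to 31.5% between BM GFP- and FL GFP- cells when totals were made equal. It moved to 39.0% in the last of these with the median of ratios. *Cdkn1b*, *Cdkn2c* and *Cdkn2d* remained above the FL in both BM fractions, and *Ccnd1*, *Ccnd2*, *Cdk4* and *Cdkn1c* below it, under all 3 other scalings.

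The main test was an additive fit over the 4 samples, with tissue and fraction as terms and 1 residual degree of freedom, which holds the interaction of both. With limma on log2(FPKM + 1) over 11707 genes, 13 genes (0.111%) passed a Benjamini-Hochberg adjusted *P* of 0.05 for the fraction and 288 (2.46%) for the tissue. None of the 10 members was among either (0 members, with 0 at an unadjusted *P* under 0.05 for the fraction and 5 for the tissue, where 732 and 2014 of the 11707 genes were). For the tissue, the smallest adjusted *P* values from limma were 0.116 for *Cdkn2c* (log2 fold change of BM over FL 2.81, standard error 0.78) and 0.151 for *Cdkn2d* (1.67, standard error 0.51). *Ccnd1* had -1.42 (standard error 0.59, adjusted *P* = 0.266), *Cdkn1b* 2.54 (1.09, 0.282) and *Ccnd3* 0.75 (0.32, 0.284). For the fraction, adjusted *P* values of the members ran from 0.968 to 0.996 in limma. Over the alternatives tried, the smallest adjusted *P* of any member was 0.0706 for the tissue and 0.9 for the fraction.

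The other genes of the G1/S step were taken from a list of 28, which holds the retinoblastoma family, the E2f and Dp factors, cyclins E and A, Cdk2, the Cdk-activating kinase and their regulators. Past 2-fold between BM GFP- and FL GFP- cells were 5 of the 28, 1 higher and 4 lower in the BM, and between BM GFP+ and FL GFP+ cells 12, of which 7 were higher, where 37.9% and 58.7% of all genes were past it. *Skp2*, the ubiquitin ligase subunit that targets p27, was more than 2-fold lower in the BM in both fractions, at 19.3 and 27.5 FPKM in fetal and 5.59 and 9.94 in adult cells. Its order was thus the reverse of that of *Cdkn1b* between the tissues. Within the FL both genes were lower in GFP+ cells, and within the BM only *Skp2* was. A link between their RNA levels was not tested. Between the fractions, 14 of the 28 were past 2-fold in the FL (44.7% of all genes) and 9 in the BM (40.7%). *E2f2*, an activating E2F factor, was higher in the GFP+ cells of both tissues, with 17.1 against 1.04 FPKM in the FL and 19.4 against 3.31 in the BM. *Ccng2*, a cyclin linked to growth arrest, was also higher in GFP+ cells, at 15.8 against 7.72 and 15.8 against 2.22. *E2f5*, an E2F factor linked to repression, was lower, at 0 against 16.1 and 2.25 against 8.99. The median log2(FPKM + 1) ratio of the list was between -0.15 and 0.04 in the 4 comparisons.

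None of 20 proliferation genes, which act in DNA replication and mitosis, was past 2-fold between BM GFP- and FL GFP- cells (0 of 20, against 37.9% of all genes), with a median log2(FPKM + 1) ratio of -0.15 and a range from -0.74 to 0.86. Between the GFP+ samples 4 of 20 were (58.7% of all genes), *Ccnb2*, *Plk1* and *Birc5* higher and *Bub1* lower in the BM, named here after their values were seen. Between the fractions 2 of 20 were past it in FL (44.7% of all genes), both lower in GFP+ cells. In the BM 3 were (40.7%), 2 of them higher and 1 lower in GFP+ cells. *Bub1*, a spindle checkpoint kinase, was lower in GFP+ cells in both tissues, at 2.97 against 12.4 and 1.28 against 14.6 FPKM. *Plk1* was lower in FL GFP+ cells, at 13.4 against 65.8, but higher in BM GFP+ cells, at 105.3 against 39.1. *Mki67*, also named after its values were seen, was higher in BM GFP+ cells, at 30.6 against 7.45. In the FL it was within 2-fold, at 21.0 against 10.8.

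Of 18 genes tied to HSC quiescence or maintenance, 8 were past 2-fold between BM GFP- and FL GFP- cells, 5 of them lower in the BM, and 13 between BM GFP+ and FL GFP+ cells, 9 of them lower, where 37.9% and 58.7% of all genes were past it. Between the fractions 7 of the 18 were past 2-fold in the FL (44.7% of all genes), 4 higher and 3 lower in GFP+ cells, and 13 in the BM (40.7%), 2 higher and 11 lower, with a median log2(FPKM + 1) ratio of 0.24 (FL) and -1.05 (BM). *Egr1*, an immediate early gene that restrains HSC proliferation, had 0.110 and 1.16 FPKM in fetal cells and 37.4 and 80.9 in adult ones, the same order of samples as *Cdkn1a*. *Nr4a1*, another immediate early gene, had 9.59, 2.36, 19.5 and 67.5. *Tek*, *Mecom*, *Mllt3* and *Ndn* were more than 2-fold lower in the BM in both fractions, as was *Cdkn1c*. *Tek*, the angiopoietin receptor of HSCs, had 41.5 and 43.0 FPKM in fetal cells against 0 and 5.54, and *Ndn*, a p53 target, had 87.8 and 60.8 against 8.45 and 30.2. The median log2(FPKM + 1) ratio of this list was -1.46 between the GFP+ and -0.48 between the GFP- samples. Several of these genes mark HSCs, whose markers *Kit* and *Procr* were also lower in BM GFP+ than in BM GFP- cells, whereas *Ly6a* was higher. The effect of the HSC share on these ratios was not tested.

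Among 17 genes that act upstream of the members, 6 of the 15 tested were past 2-fold between BM GFP- and FL GFP- cells (37.9% of all genes) and 10 of 16 between the GFP+ samples (58.7%). Between the fractions 1 of 15 was past it in FL (44.7% of all genes) and 7 of 15 in BM (40.7%). *Mycn*, whose protein activates *Cdk4* and *Ccnd2* transcription, had 291.7 and 227.6 FPKM in fetal and 16.4 and 69.4 in adult cells. *Cdk4* had the same order of samples, but *Ccnd2* did not, since its adult GFP+ value (52.2) exceeded its adult GFP- value (44.0). *Myc*, named here after its values were seen, was instead higher in both BM samples, at 256.4 and 233.5 against 170.9 and 96.7. A link of *Mycn* or *Myc* to the levels of *Cdk4* and *Ccnd2* was not tested. *Klf4*, an activator of *Cdkn1a*, was listed at 0 in FL GFP+ cells and had 0.385, 10.6 and 2.33 in the others. *Tgfbr1*, a TGF-β receptor, had 17.4 and 14.2 in fetal cells against 4.81 and 3.18, *Stat5b* had 37.7 and 35.3 against 15.9 and 15.8, and *Mxi1*, a Myc antagonist, 8.08 and 7.40 against 2.50 and 2.17. None of the 17 was more than 2-fold apart between the fractions in the same direction in both tissues.

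**Figure D5:**
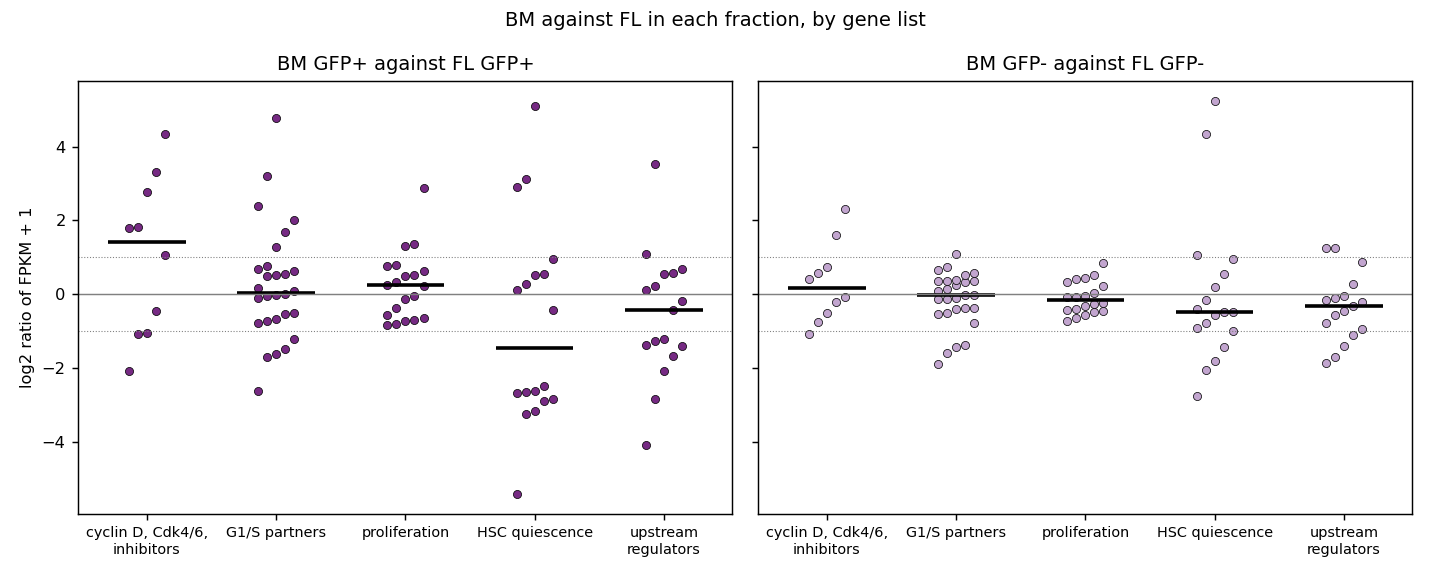
Log2 ratios of FPKM + 1 of BM over FL in the GFP+ (left) and GFP- samples (right), 1 point per gene, for the 10 members (first column) and 4 other gene lists; black bars are medians and dotted lines mark 2-fold. In the GFP- samples the 20 proliferation genes all lie within 2-fold, while the members extend to 2.32.

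The genes most like a member over the 4 samples were sought for the 3 members with the widest range, as the smallest root mean square difference of centred log2(FPKM + 1) values among 8361 genes. With 4 points, many genes lie close by, and the result is a description of profiles. Nearest to *Cdkn2c* were *Isg20* (0.04), *Gngt2* (0.06) and *Anxa2* (0.09). *Anxa2*, for example, had 19.6 FPKM in both fetal samples but 234.0 and 102.1 in the adult ones. Nearest to *Cdkn1b* were *Zbtb8a* (0.10), *Mcoln2* (0.11) and *Napg* (0.14), all at under 1 FPKM in FL GFP+ cells. Nearest to *Cdkn1a* were *Tgtp2* (0.15), *Fkbp11* (0.17) and *Bet1l* (0.21).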

How the data were processed

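RNA from sorted LSK-SLAM cells was made into SMARTer libraries and sequenced on a HiSeq2000. FPKM tables were deposited. The authors made them with Bowtie, TopHat and Cufflinks (2.2.1 per the labels), corrected for fragment bias and multiple mapping and set on a common scale by Cuffnorm (geometric option). The paper's methods name NCBI37/mm9 and the labels mm10. Gene positions here are from GENCODE vM1 on NCBI37/mm9, and promoters from RefSeq (GRCm38.p6). FPKM are not counts, so no count model was fitted. A gene was called past 2-fold when its FPKM was more than 2 times that of the other sample and at least 1 of both reached 1. Ratios used a pseudocount of 1. limma 3.58.1 in R 4.3.3 (lmFit, eBayes with trend, Benjamini-Hochberg over all genes) took genes reaching 1 FPKM in 2 or more samples. It was also run on simulated data with independent noise and no interaction of tissue and fraction. That run cannot show how the fit performs for the members, since the real residual holds this interaction. Other steps used Python 3.11.15, numpy 2.4.6 and pandas 2.3.3. The other genes named are, by rule, those past 2-fold the same way in both tissues or both fractions, ordered by the smaller ratio, with up to 6 for each list, and the 3 genes most like each of 3 members. The members and gene lists were chosen with earlier results of these data known, and the promoter motifs after the values were seen. The alternatives were 3 scalings, other pseudocounts, a 1.5-fold threshold, other filters, and limma without trend or covariate or without microRNA and small nucleolar RNA genes.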

Additional observations from a re-analysis of the deposited data

Results flagged for a closer look

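For 6 members the ratio of GFP+ to GFP- cells had opposite signs in the FL and the BM, which rests on 1 sample per group, and the difference was not tested. On the log2(FPKM + 1) scale the BM ratio minus the FL ratio was 3.62 for *Cdkn1b* (-2.45 in the FL, 1.17 in the BM), 2.198 for *Cdkn2d* (-0.86 and 1.34) and 2.01 for *Cdk6* (-1.78 and 0.23). It was 0.64 for *Ccnd3* (-0.11 and 0.53), -0.99 for *Cdk4* (0.45 and -0.54) and -1.32 for *Ccnd1* (0.71 and -0.61). *Cdkn1b* was the only member past 2-fold in opposite directions, as were 7.65% of all genes. The ratio of *Cdk6* in the BM was -0.19 after scaling to the same FPKM total, so its signs then matched, and the other 5 kept opposite signs under every scaling.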

How the results depend on the processing

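No pairing by replicate number was possible, since each group had 1 sample and the labels give no such numbers, but the limma fit for the fraction held tissue as a term and so compared within tissue. Of 197 recomputed member ratios, 180 stayed on the same side of 2-fold and 17 crossed it, and none past 2-fold changed sign. The count of members past 2-fold between BM GFP+ and BM GFP- cells went from 4 to 2 (*Ccnd1* and *Cdkn1a*) with equal FPKM totals, with or without the short RNA genes. The share of all genes past 2-fold went from 40.7% to 40.9% with the short RNA genes and 40.8% without them. A 1.5-fold threshold raised the counts from 3 to 5 in the FL and from 3 to 5 between the GFP- samples, while the share of all genes went from 44.7% to 61.6% and from 37.9% to 57.9%. With BM GFP- cells in place of BM GFP+ cells, against both FL samples, the count of the GFP+ comparison went from 9 to 3. The second rule is stricter, since it asks for 2-fold against both FL samples and not FL GFP+ cells alone. Of all genes, 58.7% passed the first rule, and 13.8% upward and 8.91% downward the second. With equal totals, with or without short RNA genes, the count of members separated by fraction went from 0 to 2. The share of all genes so separated went from 28% to 27.2% with the short RNA genes and 26.4% without them. The comparison without BM GFP+ cells and the counts of separated members were added after seeing the data. For the fraction, limma called 13 genes as reported, all of them microRNA or small nucleolar RNA genes, 1 with a pseudocount of 0.1, 0 without the trend (685 at an unadjusted *P* under 0.05), 4 without the covariate and 0 without the short RNA genes (754). For the tissue it called 288, then 80 with a pseudocount of 0.1, 0 without the trend (1581), 189 with every gene above 0, 176 without the covariate and 482 without short RNA genes. No member was called by limma in any of these fits (0 members). Read counts and replicates are lacking, so the precision of each FPKM is unknown.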
